A study of Mus musculus with 14 samples.

Results

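Several enzymes of glutathione, thioredoxin, heme breakdown and carbonyl reduction are encoded by known targets of the transcription factor NRF2. A list of 10 genes of antioxidant and NRF2-linked enzymes was described here across 6 groups of mouse CD4 T cell cultures. The members are Nqo1, Hmox1, Gclc, Gclm, Txnrd1, Srxn1, Cbr3, Prdx1, Gpx8 and Gsr. Members were matched by exact gene symbol. Where a gene has several probe sets, the brightest over the 14 arrays, by mean log2 signal, stands for it. A probe set of its symbol alone was found for 9 of the 10, among 18193 genes so named. All 5 probe sets of Prdx1, a peroxiredoxin that removes hydrogen peroxide, also carry a second symbol, and Prdx1 was not analysed here. A filter on low signals was passed by 8 of the 9 members, within 10916 genes tested. Gpx8 lay just inside it, with a mean log2 value of 3.62 as deposited, and Nqo1 just outside, with 3.32, at a limit of 3.60. The signals that passed Gpx8 and Cbr3 came mainly from cultures with C2, so no count over the members that passed is support for a change in the list.

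The cells came from spleen and lymph nodes, and human IL-2 was added in all 6 groups. Th17 cultures also had TGF-beta 1, IL-6, IL-1 beta, IL-23, IL-21, TNF-alpha and antibodies to IL-4 and IFN-gamma, and comprised 3 C2 and 3 control arrays. Treg cultures had TGF-beta 1, and Th1 cultures IL-12 and an antibody to IL-4, with 2 C2 and 2 control arrays each. C2 stands for acetate at 10 mM in the protocols of the Th17 samples. The protocols of the Treg and Th1 C2 samples name acetone at 10 mM, while the series' design names sodium acetate for every subset, so the groups are called C2 throughout. Culture lasted 5 days by the protocols and 6 to 7 days by the design. Whether the arrays of a group stem from separate mice or cultures is not labelled. The p-values therefore cover the spread between arrays, which may be technical.

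In untreated cells NRF2, encoded by Nfe2l2, is bound by KEAP1 and degraded. Oxidants and electrophiles modify KEAP1, and NRF2 then accumulates, pairs with small MAF proteins and binds antioxidant response elements near its target genes. In T cells, glutathione is known to be needed for the growth that follows activation.

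RNA was hybridised to Affymetrix arrays. The 2% trimmed mean of the deposited signals ran from 53.2 to 116 between arrays, a ratio of 2.18, so log2(signal + 3) was quantile-normalized before every comparison. Values called normalized signals are these values turned back to the linear scale. Before that step, the median log2 difference of all genes, C2 minus control, was -0.29 for Th17, -0.13 for Treg and 0.23 for Th1. Untreated Th17 minus untreated Th1 was 0.62. After it, each of these medians lay between -0.0012 and 0.033. The subset labels were set against the 7 lineage genes tested. Ccr6 means were highest in Th17 and Tbx21 means in Th1 cultures, with and without C2. Ikzf4, linked to Treg cells, averaged 232 in Treg controls, below Th17 (454) and Th1 controls (289). Cxcr3, linked to Th1 cells, averaged 448 in Treg controls, against 84.4 in Th1 and 52.3 in Th17 controls. Il17a averaged a normalized signal of 4324 in Th17 C2 and 652 in Th17 control arrays, and 4.39 to 13.4 in the other groups. Foxp3 averaged 59.1 in Treg C2 arrays, against 332 in Treg controls, where it was the highest. The Treg C2 mean lay below that of Th17 controls (82.8), and the fall with C2 in Treg cultures was called (-2.43, limma adjusted p = 0.00166). Ifng averaged 9964 in Th1 C2 and 1938 in Th1 control arrays, and 2782 in Treg C2 and 1170 in Treg control arrays. Without C2 it was not called between Th1 and either other subset: Th1 arrays overlapped those of untreated Treg (limma adjusted p = 0.877) and untreated Th17 cultures (0.348). Throughout, a gene is called at a limma adjusted p under 0.05, with Benjamini-Hochberg adjustment over all 10916 genes. Probe sets described alone come from a second limma fit, adjusted over all 34945 probe sets of a single symbol with no filter on low signals, whose p-values are not set against those of the gene fit. In both, errors of log2 differences are standard errors (SE) unless named otherwise.

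The element that NRF2 and small MAF proteins bind was searched for as TGACNNNGC on both strands of the RefSeq promoters (GRCm38.p6), from 250 bases before to 50 bases after each gene's start. An entry was found for 7 of the 10 members, and 4 of the 7 held a match: Gclm, Txnrd1, Srxn1 and Prdx1. By entry, 4 of the members' 9 promoters held it. The same letters were found in 12.4% of the 32851 promoter entries of that length searched, with a single chromosome left out. Promoters of Gpx8, Nqo1 and Cbr3 held no match in this window. Those of Gclm and Txnrd1 are shown because each holds the element and the genes moved in opposite directions with C2, and that of Cbr3 because its C2 difference was called in every subset and the window holds no match. They were picked after the values were seen, and a match is a description of letters, not a site in use. Capitals mark the match, which lies on the opposite strand in both genes, and the coordinates are chr3:122245307-122245606 (+) for Gclm, chr10:82858956-82859255 (+) for Txnrd1 and chr16:93682969-93683268 (+) for Cbr3.
Gclm: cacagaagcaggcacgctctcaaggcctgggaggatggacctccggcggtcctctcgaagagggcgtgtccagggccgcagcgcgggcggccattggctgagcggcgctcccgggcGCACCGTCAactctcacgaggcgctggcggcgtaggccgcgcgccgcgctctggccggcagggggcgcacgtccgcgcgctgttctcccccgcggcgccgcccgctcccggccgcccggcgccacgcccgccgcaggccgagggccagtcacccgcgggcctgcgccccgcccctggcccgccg
Txnrd1: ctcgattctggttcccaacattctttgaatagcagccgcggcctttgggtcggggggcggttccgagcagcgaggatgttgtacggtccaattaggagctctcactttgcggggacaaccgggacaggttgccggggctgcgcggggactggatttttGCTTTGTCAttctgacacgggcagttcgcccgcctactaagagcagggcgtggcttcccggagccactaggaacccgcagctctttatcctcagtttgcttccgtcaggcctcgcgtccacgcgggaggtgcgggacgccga
Cbr3: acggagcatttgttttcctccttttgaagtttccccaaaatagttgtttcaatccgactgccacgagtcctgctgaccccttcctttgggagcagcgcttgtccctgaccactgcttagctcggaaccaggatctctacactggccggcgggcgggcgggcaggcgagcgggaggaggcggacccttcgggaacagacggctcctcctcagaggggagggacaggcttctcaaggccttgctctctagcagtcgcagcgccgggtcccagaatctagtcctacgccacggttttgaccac

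In Gclm the match lay 134 to 126 bases before the start. Txnrd1 has 3 promoter entries in the table, and the match was in the entry shown, 92 to 84 bases before its start. The Srxn1 match lay inside the transcript, at bases 29 to 37 after the start, and the Prdx1 match 133 to 125 bases before it.

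The genes of the glutathione-making enzyme were lower with C2. Gclc, the catalytic subunit of glutamate-cysteine ligase, which sets the rate of glutathione synthesis, fell in Th17 cultures. Its normalized signals were 78.3, 63.6 and 63.6 in Th17 C2 arrays, against 137, 114 and 140 in Th17 controls. Each C2 array was below every control array, and the log2 difference was -0.90 ± 0.24 (limma adjusted p = 0.0178). The call was lost without Th17 C2 replicate 2 (limma adjusted p = 0.0599), without Th17 control replicate 1 (0.0628) or without Th17 control replicate 3 (0.0677). In Treg cultures Gclc had 64.0 and 77.1 in C2 arrays, against 132 and 136 in controls. These groups did not overlap either, and the difference was of the same size, -0.90 ± 0.29, but missed the threshold (limma adjusted p = 0.0592). It was called when any Th1 array was left out (limma adjusted p from 0.0204 to 0.0452). In Th1 cultures the signals were 52.8 and 103 in C2 arrays, against 123 and 78.5 in controls. Here the groups overlapped, and the difference was -0.40, with a 95% interval from -1.02 to 0.23 (limma adjusted p = 0.456). Without Th1 C2 replicate 1 the Th1 difference was 0.07. In the fit over probe sets a second Gclc probe set had log2 differences of -1.30 in Th17 (limma adjusted p = 0.00129) and -0.93 in Treg cultures (0.0444). The Gclc probe set used above had -0.90 in both there (0.0326 and 0.105).

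Gclm, the modifier subunit that makes the ligase more efficient, had normalized signals below its controls on every C2 array of the 3 subsets. Th17 C2 arrays had normalized signals of 125, 99.7 and 132, against 214, 219 and 189 in Th17 controls. The fall of 0.79 on the log2 scale (SE 0.15) was called (limma adjusted p = 0.00355), and it was called without any 1 array. Treg C2 arrays had 120 and 119, against 173 and 176 in Treg controls. Th1 C2 arrays had 123 and 141, against 183 and 151 in Th1 controls. Neither of these differences passed the test: -0.54 ± 0.19 in Treg (limma adjusted p = 0.0795) and -0.34 ± 0.19 in Th1 cultures (0.314). In the mean of the 3 subsets, both ligase genes fell, Gclc by 0.73 ± 0.16 (limma adjusted p = 0.00358) and Gclm by 0.56 ± 0.10 (0.00134). On the mean of both Gclm probe sets the Th17 difference was -0.57 and not called (limma adjusted p = 0.102). The second of them, with a mean deposited signal of 11.4, was also lower in each subset, by -0.35 to -0.63, and was not called. As deposited, the Th1 signals of the Gclm probe set used above overlapped. They were 121 and 128 in C2 arrays, against 152 and 123 in controls, and the log2 difference was -0.13.

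Gsr, which reduces oxidized glutathione with NADPH, did not follow the ligase. Its normalized signals were 77.1, 72.6 and 80.7 in Th17 C2 arrays, against 87.7, 106 and 95.3 in Th17 controls, so every C2 array was below the controls. In Treg cultures the C2 arrays had 69.6 and 86.9, against 42.0 and 38.9 in controls. Th1 C2 arrays had 133 and 141, against 98.7 and 70.0 in controls. The C2 arrays of both these subsets were thus above their controls. The rise in Treg cultures was called, at 0.90 ± 0.21 (limma adjusted p = 0.014). That in Th1 cultures was 0.70 ± 0.21 (limma adjusted p = 0.0757), and the difference in Th17 cultures -0.31 ± 0.17 (0.209). The Treg call was lost without Treg C2 replicate 2 (limma adjusted p = 0.114), Treg control replicate 1 (0.0694) or Treg control replicate 2 (0.097). It was also lost on the signals as deposited, where the log2 difference was 0.62 (limma adjusted p = 0.326). Without Th1 control replicate 1 the Th1 difference was 0.94 and called (limma adjusted p = 0.0403). A second Gsr probe set had the same signs, with -0.26 for Th17, 1.04 for Treg and 0.44 for Th1, none of them called. Whether the C2 difference depends on the subset was tested with a limma F test. Th17 samples also differ from the others in the compound named and in array labelling, which cannot be told apart from subset. The F test gave Gsr an adjusted p of 0.0761 (unadjusted 0.000918). It passed when Th1 C2 replicate 1 (0.0407) or Th1 control replicate 1 (0.03) was left out.

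**Figure D1:**
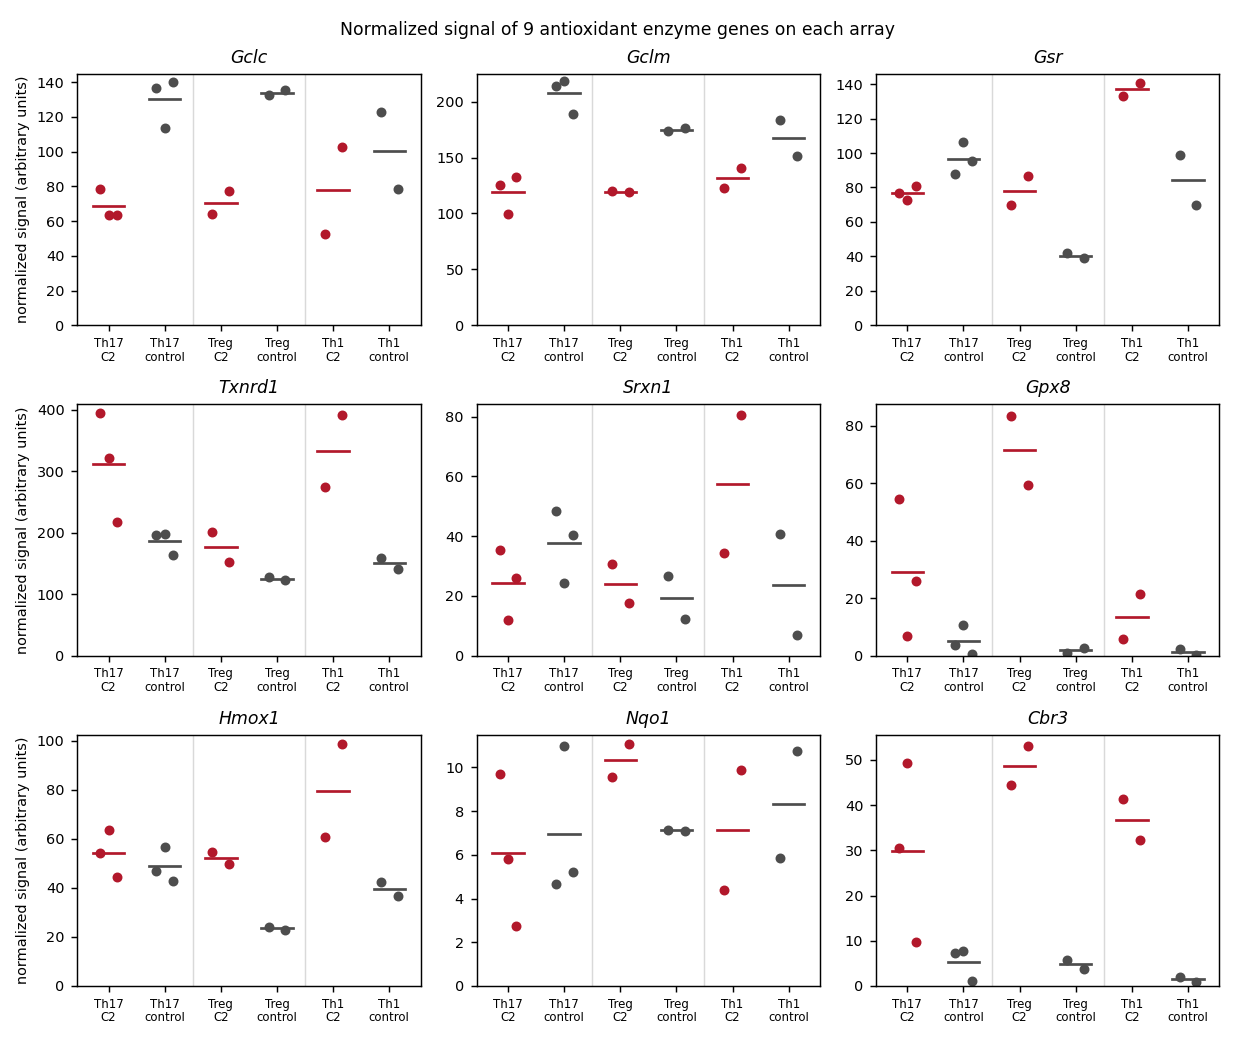
Normalized signal (arbitrary units, linear axes from 0) of 9 enzyme genes on each array. Points are arrays, bars are group means, C2 groups are red and control groups grey. Gclm lies below its controls on every C2 array and Cbr3 above, while Gsr is below its controls in Th17 C2 arrays and above them in Treg and Th1 C2 arrays.

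The thioredoxin arm was represented by Txnrd1 and Srxn1. Txnrd1, the cytosolic selenoprotein that reduces thioredoxin, rose in Th17 and Th1 cultures. Th17 C2 arrays had normalized signals of 395, 322 and 218, against 196, 199 and 163 in Th17 controls. Th1 C2 arrays had 274 and 391, against 159 and 141 in Th1 controls. On normalized signals C2 and control arrays did not overlap in either subset. The log2 differences were 0.70 ± 0.22 (limma adjusted p = 0.0361) and 1.11 ± 0.26 (0.0381). Treg C2 arrays, with 201 and 153 against 127 and 123 in controls, were also all higher, by 0.47 ± 0.26, which was not called (limma adjusted p = 0.278). As deposited, Th17 C2 signals of 400, 331 and 236 overlapped controls of 349, 203 and 208, and the log2 difference was 0.36. Deposited Treg signals overlapped too, with 171 and 126 in C2 arrays, against 140 and 106 in controls. The Th17 and Th1 calls both stood near the threshold. Of 22 refits, 8 with another setting and 14 without 1 array, 11 ended the Th17 call and 12 the Th1 call.

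Leaving out 1 array put the Txnrd1 difference in Th17 cultures at 0.51 to 0.94. Its limma adjusted p was 0.117 without Th17 C2 replicate 1, 0.103 without Th17 C2 replicate 2, and 0.0767, 0.0713 and 0.127 without Th17 control replicates 1, 2 and 3. Without Treg control replicate 1 or 2 it was 0.052 or 0.0519. In Th1 cultures the limma adjusted p of Txnrd1 was 0.224 without Th1 C2 replicate 2, 0.0597 without Th1 control replicate 1 and 0.167 without Th1 control replicate 2. Leaving out a Th17 control array, a Treg control array or Treg C2 replicate 1 put it between 0.0509 and 0.0594. The other Txnrd1 probe sets gave smaller differences. In the fit over probe sets these were 0.27 in Th17 (limma adjusted p = 0.57) and 0.48 in Th1 cultures (0.426) for one, and 0.11 (0.941) and 0.59 (0.696) for the other. None of these 4 was called, and in that fit the Txnrd1 probe set used above was not called either (0.06 in Th17 and 0.0575 in Th1 cultures).

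Srxn1, sulfiredoxin, which restores overoxidized peroxiredoxins, was not called in any subset. Its normalized signals were 35.4, 12.0 and 25.9 in Th17 C2 arrays, against 48.5, 24.3 and 40.5 in Th17 controls. They were 30.6 and 17.5 in Treg C2 arrays, against 26.6 and 12.2 in controls, and 34.3 and 80.5 in Th1 C2 arrays, against 40.7 and 6.78 in controls. C2 and control arrays overlapped in each subset. The intervals were wide: -1.80 to 0.55 for Th17, -1.13 to 1.74 for Treg and -0.0047 to 2.87 for Th1, on the log2 scale. Without Th1 control replicate 1 the Th1 difference was 2.52 and was called (limma adjusted p = 0.0497). The sign in Th17 and Treg cultures turned between the 4 Srxn1 probe sets, none of which was called.

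Gpx8, a glutathione peroxidase-like protein of the endoplasmic reticulum membrane, was near the low end of the arrays in control cultures. Treg C2 arrays had normalized signals of 83.4 and 59.6, against 0.951 and 2.80 in Treg controls. Th17 C2 arrays had 54.7, 6.78 and 26.0, against 3.68, 10.8 and 0.764 in Th17 controls, and Th1 C2 arrays had 5.66 and 21.5, against 2.39 and 0.219 in Th1 controls. Treg C2 arrays stood clear of all other groups, and 1 Th17 C2 array lay among the Th17 controls. Only the Treg rise was called, at 3.94 ± 0.80 on the log2(signal + 3) scale (limma adjusted p = 0.00709). Gpx8 passed the low-signal filter mainly through its C2 arrays, so its p-values are no separate support for a rise. The differences were 1.85 ± 0.65 in Th17 (limma adjusted p = 0.06) and 1.81 ± 0.80 in Th1 cultures (0.206). With control signals this low, the size depends on the constant added. The Treg difference was 4.72 with a constant of 1 and 2.69 with 10.7, the median of all deposited signals. The Treg call was lost without Treg C2 replicate 1 (limma adjusted p = 0.0749) or Treg control replicate 1 (0.0627). The Th17 difference was called without Th17 C2 replicate 2 (0.0197), Th17 control replicate 2 (0.0451) or Th1 C2 replicate 1 (0.0475). A test of whether the C2 difference of Gpx8 varied between subsets gave a limma adjusted p of 0.458.

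Hmox1, the inducible heme oxygenase that opens heme into biliverdin, carbon monoxide and iron, rose in Treg cultures. Its normalized signals there were 54.8 and 49.6 in C2 arrays, against 24.2 and 22.9 in controls. Th1 C2 arrays had 60.7 and 98.8, against 42.4 and 36.9 in Th1 controls. In both subsets the C2 arrays were all higher, by 1.05 ± 0.26 in Treg (limma adjusted p = 0.0199) and 0.92 ± 0.26 in Th1 cultures (0.0666). In Th17 cultures the groups overlapped, with 54.4, 63.8 and 44.6 in C2 arrays, against 46.9, 56.8 and 42.7 in controls. The Th17 difference was 0.14, with a 95% interval from -0.32 to 0.60, and on the signals as deposited it was -0.18. The Treg call of Hmox1 was lost when any of the 4 Treg arrays was left out. Its limma adjusted p was then 0.14 without Treg C2 replicate 1, 0.0721 without Treg C2 replicate 2, 0.0916 without Treg control replicate 1 and 0.112 without Treg control replicate 2. It was lost on the signals as deposited too, at 0.80 (limma adjusted p = 0.223). The Th1 difference was called without Th1 C2 replicate 1 (0.0212). The F test of differing C2 effects gave Hmox1 an adjusted p of 0.292.

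Cbr3, a carbonyl reductase that uses NADPH, rose in all 3 subsets. Th17 C2 arrays had normalized signals of 30.6, 49.4 and 9.77, against 7.24, 7.70 and 0.993 in Th17 controls. Treg C2 arrays had 44.4 and 53.0, against 5.75 and 3.81 in Treg controls, and Th1 C2 arrays 41.2 and 32.2, against 2.08 and 0.907 in Th1 controls. No C2 array fell among its controls. The log2 differences were 1.89 ± 0.50 in Th17 (limma adjusted p = 0.0184), 2.74 ± 0.61 in Treg (0.012) and 3.15 ± 0.61 in Th1 cultures (0.0198). They shrank to 1.24, 1.94 and 1.95 with a constant of 10.7 and grew to 2.30, 3.12 and 3.95 with a constant of 1. The call was kept under both constants in each subset. Cbr3 passed the low-signal filter mainly through its C2 arrays, and both refits kept the same set of genes. The calls of Cbr3, and keeping them there, are therefore no separate support for the rise. The Th17 call was lost without Th17 C2 replicate 1 (limma adjusted p = 0.051), Th17 C2 replicate 2 (0.0867) or Th17 control replicate 3 (0.0808). The Treg call was lost without Treg C2 replicate 1 (0.0742), Treg C2 replicate 2 (0.075), Treg control replicate 1 (0.0556) or Treg control replicate 2 (0.0849). The Th1 call was lost without Th1 C2 replicate 2 (0.07) or Th1 control replicate 2 (0.0985). The size was at least 1.42 on the log2 scale in each of these fits.

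Nqo1, the quinone reductase often read as a marker of NRF2 activity, stayed at the low end of the arrays in every group. Th17 C2 arrays had normalized signals of 9.68, 5.81 and 2.76, against 4.65, 11.0 and 5.23 in Th17 controls. Treg C2 arrays had 9.56 and 11.1, against 7.14 and 7.10 in Treg controls, and Th1 C2 arrays 4.37 and 9.89, against 5.85 and 10.8 in Th1 controls. C2 and control arrays overlapped in Th17 and Th1 cultures. Nqo1 did not pass the low-signal filter and was not tested.

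Counted over the 8 members tested, 4 were called in Th17 cultures, with Txnrd1 and Cbr3 higher and Gclc and Gclm lower. Of all genes tested, 20.3% were called there, 11.7% higher and 8.67% lower. In Treg cultures 4 members were called (Gsr, Gpx8, Hmox1 and Cbr3, all higher), where 12.5% of all genes were called, 7.04% higher and 5.45% lower. In Th1 cultures 2 members were called (Txnrd1 and Cbr3, both higher), where 4.02% of all genes were called, 2.1% higher and 1.92% lower. The mean of the 3 C2 differences, with equal weight per subset, was called for 7 of the 8, against 31.8% of all genes, 17.7% higher and 14.2% lower. Single arrays moved the counts. In Th17 cultures 1 member was called without Th17 control replicate 3, and 2 without Th17 C2 replicate 1 or 2 or Th17 control replicate 1. In Treg cultures 0 were called without Treg control replicate 1, and 1 without any other Treg array. In Th1 cultures 0 were called without Th1 C2 replicate 2 or Th1 control replicate 2, and 1 without any Th17 control array, either Treg control array or Treg C2 replicate 1. The mean of the 3 subsets called 7 without any 1 array. In that mean Gpx8 rose by 2.53 ± 0.43 (limma adjusted p = 0.000823) and Cbr3 by 2.59 ± 0.33 (0.000123). Control means of both lay below the filter's signal of 9.10, so the sizes depend on the constant added. Sizes and calls also depend on having passed the filter through C2 arrays. Over the 22 refits the sizes ran from 1.61 to 3.20 for Gpx8 and from 1.71 to 3.12 for Cbr3. Txnrd1 rose by 0.76 ± 0.14 (limma adjusted p = 0.00157), Hmox1 by 0.71 ± 0.14 (0.00245) and Gsr by 0.43 ± 0.11 (0.0115). Gclc and Gclm were the 2 that fell, and Srxn1 was not called (0.37 ± 0.36). The mean calls of Txnrd1 and Gsr depended on the setting. Txnrd1 was not called on the mean of its probe sets (0.45, limma adjusted p = 0.0643), and Gsr was not called on the signals as deposited (0.28, 0.291). The other 5 were called in each of the 22 refits, and Gclm missed the test on its second probe set alone. The F test of differing C2 effects called none of the 8, by limma's adjusted p. It called 0.797% of all genes, and 2 members, Gsr and Hmox1, had an unadjusted p under 0.05.

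**Figure D2:**
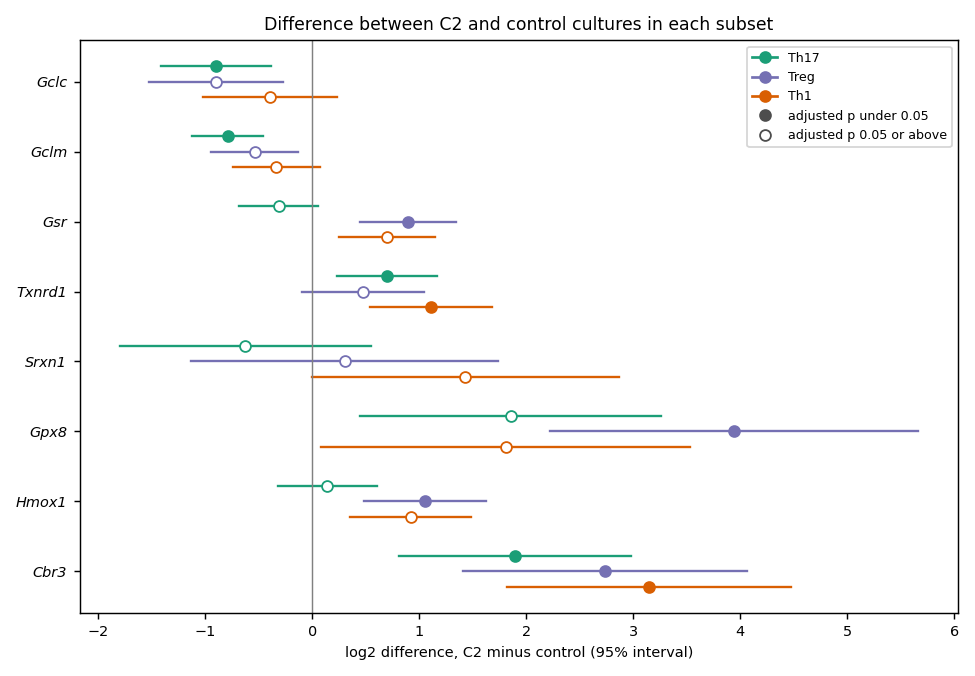
Log2 difference, C2 minus control, of the 8 genes tested (rows) in Th17, Treg and Th1 cultures. Points are estimates, filled where the adjusted p is under 0.05, and bars are 95% intervals. Cbr3 is filled in all 3 subsets, Gclc and Gclm lie left of 0 and are filled in Th17 cultures, and Gsr has points on both sides of 0.

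Without C2, 2 of the genes were called between subsets. Array labelling protocols differ between Th17 and the other subsets, so a difference from Th17 cultures cannot be told apart from labelling. Gsr was lower in untreated Treg cultures, at a mean of 40.4 ± 2.2 (SD, n = 2), than in untreated Th1 cultures, at 84.4 ± 20.3 (SD, n = 2), a log2 difference of -0.99 ± 0.21 (limma adjusted p = 0.0158). It averaged 96.4 ± 9.4 (SD, n = 3) in untreated Th17 cultures, 1.19 ± 0.19 above untreated Treg cultures on the log2 scale (limma adjusted p = 0.00136). Hmox1 was 0.95 ± 0.24 higher in untreated Th17 than in untreated Treg cultures (limma adjusted p = 0.0206). These were the calls among the 8 members: 1 for Treg minus Th1, where 4.99% of all genes were called (2.86% higher, 2.13% lower), and 2 for Th17 minus Treg, where 11.4% were (5.32% higher, 6.03% lower). The Th17 minus Th1 comparison called 0 members by limma's adjusted p, and 0 at an unadjusted p under 0.05, where 6.6% of all genes were called (3% higher, 3.6% lower). On the signals as deposited it called 5 members, all higher in Th17, beside the shift of 0.62 in the median of all genes. The Gsr difference between Treg and Th1 controls was not called as deposited (-0.71, limma adjusted p = 0.359). It was also lost without Treg control replicate 1 (0.0879) or 2 (0.13) or Th1 control replicate 1 (0.102). The Hmox1 call was lost without Th17 control replicate 2 (0.0821), Treg control replicate 1 (0.107) or Treg control replicate 2 (0.141). The Gsr difference between Th17 and Treg was called in each of the 22 refits, none of which covers labelling.

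The 6 group means of each gene's normalized signals gave the following orders, and overlaps are those of normalized signals. Gclc ran from 134 ± 2.3 in Treg control arrays through Th17 control, Th1 control, Th1 C2 and Treg C2 arrays to 68.5 ± 8.5 in Th17 C2 arrays (SD, n = 2 and 3), and every pair of neighbours overlapped. Gclm had its 3 control groups on top and its 3 C2 groups below, from 207 ± 16 in Th17 controls to 119 ± 17 in Th17 C2 arrays (SD, n = 3 each). Txnrd1 had Th1 C2 and Th17 C2 arrays on top, at 333 ± 82 (SD, n = 2) and 312 ± 89 (SD, n = 3), clear of Th17 controls at 186 ± 20 (SD, n = 3). Treg controls were lowest for Txnrd1, at 125 ± 2.9 (SD, n = 2). Hmox1 ran from 79.8 ± 26.9 in Th1 C2 arrays to 23.6 ± 0.9 in Treg controls (SD, n = 2 each), and its 3 C2 groups and the Th17 controls overlapped as neighbours in that order. Gpx8 had Treg C2 arrays on top, at 71.5 ± 16.8 (SD, n = 2), clear of the other groups. Cbr3 had them on top too, at 48.7 ± 6.1 (SD, n = 2), but Th17 C2 replicate 2, at 49.4, lay between the 2 Treg C2 arrays. Gsr had Th1 C2 arrays on top, at 137 ± 5.2 (SD, n = 2), clear of Th17 controls, and Treg controls below every other group. For Srxn1 and Nqo1 every pair of neighbours overlapped, with Srxn1 means from 57.4 ± 32.7 in Th1 C2 arrays to 19.4 ± 10.2 in Treg controls (SD, n = 2 each).

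Other genes of the same pathways were taken from 8 lists of 80 genes (74 on the array, 68 tested). In Th17 cultures 12 rose and 4 fell with C2, 23.5% of those tested, beside the 20.3% of all genes. In Treg cultures 12 rose and 1 fell, 19.1%, beside 12.5% of all genes, and in Th1 cultures 7 rose and 2 fell, 13.2%, beside 4.02%. In the mean of the 3 subsets 23 rose and 12 fell, 51.5%, beside 31.8%. The median log2 difference over the 68 was 0.08, 0.20 and 0.08, beside 0.01, 0.03 and 0.03 over all genes. Of these calls, 5 of 16 for Th17, 3 of 13 for Treg and 0 of 9 for Th1 were kept in each of 22 refits with another setting or without 1 array.

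The lists are given by their counts, and no test compared them. Of 9 other glutathione genes tested, among them Gss, which completes glutathione, 0 were called in any subset by limma's adjusted p, and 2 in each subset had an unadjusted p under 0.05. Of all genes, 20.3%, 12.5% and 4.02% were called in Th17, Treg and Th1 cultures. In the mean of the 3 subsets Gss (0.34) and Glrx (0.63) rose and Glrx3 fell (-0.59). Of 11 thioredoxin and peroxiredoxin genes, Prdx2, a cytosolic peroxiredoxin, rose in Th17 (1.13) and Treg cultures (0.84), and Prdx4, its counterpart of the endoplasmic reticulum, rose in Treg cultures (1.32). Sesn1 fell in Treg (-1.38), Sesn2 in Th17 (-0.65) and the mitochondrial reductase Txnrd2 in Th1 cultures (-1.03). Among 4 superoxide and peroxide genes Park7, a redox-sensitive chaperone, rose in Th17 (0.60) and Treg cultures (1.41). Of 7 NADPH-supplying genes, Idh2 (1.02) and Taldo1 (0.75) rose and Mthfd2 (-0.90) fell in Th17 cultures, and Me1, malic enzyme, rose in Treg cultures (1.82).

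The heme and iron list, next to Hmox1, had rises and no falls. Blvrb, a biliverdin reductase, rose in Th17 cultures by 2.03 ± 0.35 (limma adjusted p = 0.00186). Hmox2, the constitutive heme oxygenase (0.81), and Slc48a1, a heme transporter (0.86), also rose there. Slc48a1 rose in Treg cultures (0.94), and Fth1, ferritin heavy chain, in Treg (0.55) and Th1 cultures (0.51), where Tfrc, the transferrin receptor, rose too (0.83). Of 10 other detoxifying targets tested, Ptgr1, which reduces lipid enones, was called in all 3 subsets. Its log2 differences were 3.10 ± 0.29 in Th17 (limma adjusted p = 0.00011), 2.13 ± 0.36 in Treg (0.00269) and 1.52 ± 0.36 in Th1 cultures (0.0375). Mean normalized signals of Ptgr1 were 347, 342 and 359 in Th17, Treg and Th1 C2 arrays, against 34.8, 75.6 and 128 in the controls of each. Akr1b8, an aldo-keto reductase, rose in Th17 (1.16) and Treg cultures (1.31). Abcc1, an exporter of glutathione conjugates, rose in Treg (0.89) and Th1 cultures (0.69), and Nqo2, a relative of Nqo1, in Th1 cultures (2.53).

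Among 8 genes of oxidative folding in the endoplasmic reticulum, Selenom rose in every subset, by 2.62 ± 0.39 for Th17, 2.81 ± 0.48 for Treg and 1.99 ± 0.48 for Th1 (limma adjusted p = 0.000844, 0.00295 and 0.0399). Ero1a, which passes electrons from disulfide formation to oxygen, rose in Treg cultures (2.21) and was -1.37 in Th1 cultures, which was not called (limma adjusted p = 0.0778). P4hb, protein disulfide isomerase, rose in Th17 (0.53) and Treg cultures (1.06), and Pdia6 in Th1 cultures (1.14). The Th1 calls of Ptgr1, Selenom and Pdia6, like every other pathway call in Th1 cultures, were each lost in at least 1 of the 22 refits.

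The transcript of NRF2 itself was not higher with C2. Mean normalized signals of Nfe2l2 were 218, 130 and 109 in Th17, Treg and Th1 C2 arrays, against 281, 203 and 237 in the controls of each. The fall was called in Th1 cultures, at -1.20 ± 0.30 (limma adjusted p = 0.0442), and in the mean of the 3 subsets, at -0.74 ± 0.16 (0.00398). It was -0.39 in Th17 (limma adjusted p = 0.286) and -0.64 in Treg cultures (0.187). The mean call was kept in each of the 22 refits and the Th1 call in 6. Keap1, the adaptor that targets NRF2 for degradation, was not called in a subset and fell in the mean by 0.27 ± 0.09 (limma adjusted p = 0.0389). That call of Keap1 was lost in 14 of the 22 refits, with a limma adjusted p of up to 0.209. Bach1, which competes with NRF2 for the same elements, was not called (0.11 for Th17, -0.35 for Treg and -0.14 for Th1). Of the other 9 regulators, Nfe2l1 (-0.52) and Mafg (-0.56) fell and Btrc (0.79) rose in Th17 cultures. In the mean of the 3 subsets, 5 of the 12 regulators tested fell and 1 rose, where 14.2% of all genes were called lower and 17.7% higher. The largest of these differences was that of Bach2, at -1.175 (limma adjusted p = 0.00556). That call was kept in each of the 22 refits, and Bach2 was not called in any single subset. The mean calls of Nfe2l1 and Gsk3b, both lower, were kept in 9 and 12 of the 22 refits, and that of Btrc, higher, in 18. An array measures NRF2's transcript and not its protein.

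**Figure D3:**
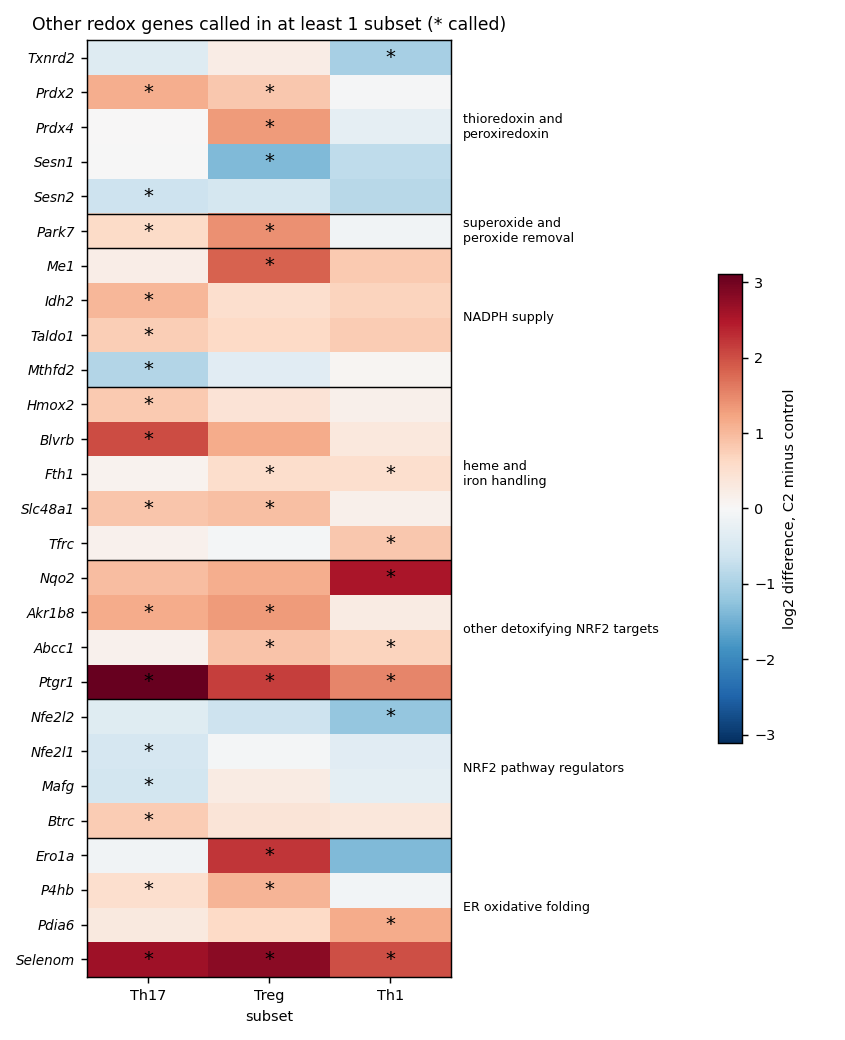
Log2 difference, C2 minus control, of the 27 pathway genes called in at least 1 subset (rows, grouped by list) in Th17, Treg and Th1 cultures. Colour gives the size, red above and blue below 0, and a star marks an adjusted p under 0.05. Ptgr1 and Selenom carry stars in all 3 subsets, and the heme and iron list has stars on positive values alone.

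Markers of several other cell types differed between C2 and control arrays. Fewer cells of a type and less RNA per cell cannot be told apart in such cultures. Summed normalized signals of 7 of 8 macrophage and monocyte genes were 117 to 194 in Th17 C2 arrays, against 74.1 to 81.6 in Th17 controls. They were 189 to 221 in Treg C2 arrays, against 113 to 150 in Treg controls, and 122 to 221 in Th1 C2 arrays, against 101 to 170 in Th1 controls. Of the 3 of these genes tested, Cd68 rose in Th17 cultures (2.10 ± 0.39, limma adjusted p = 0.00257), with group means of 91.5 in Th17 C2 and 18.0 in Th17 control arrays. Adgre1 (-0.32) and Csf1r (-0.36) had the opposite sign there and were not called. Adgre1, which encodes F4/80, had group means of 8.12 to 17.6, and Lyz2, Itgam, Cd14 and Fcgr3 stayed below the filter, with no group mean at 0. Sums of 5 of 6 B cell genes were lower with C2. They were 278 to 796 in Th17 C2 arrays, against 857 to 1426 in Th17 controls, and 919 to 1643 in Treg C2 arrays, against 2444 to 2781 in Treg controls. Both Th1 C2 arrays had 122, against 575 to 739 in Th1 controls. Most of that sum was Ighm, which fell in Th17 (-1.30) and Th1 cultures (-2.96). Cd79b, the other B cell gene tested, was not called with C2. It averaged 47.2 in Th17 C2 and 34.1 in Th17 control arrays, and 71.2 and 72.3 in those of Treg cultures. In Th1 cultures it averaged 18.8 in C2 and 24.9 in control arrays. Below the filter, Pax5 means were higher with C2 in each subset, Ms4a1 means lower, and Cd79a means lower in Treg cultures alone. Of the 2 CD8 genes, Cd8b1 rose in Th17 cultures (1.78, limma adjusted p = 0.00138). Mast cell and basophil sums, over 4 genes, were 25.3 to 45.3 in Th17 C2 arrays, against 76.0 to 112 in Th17 controls. Kit fell there (-1.57, limma adjusted p = 0.00788), and the groups overlapped in Treg and Th1 cultures. Sums of 3 of 4 NK cell genes were 715 to 873 in Treg C2 arrays, against 1191 to 1675 in Treg controls. They were 312 to 508 in Th1 C2 arrays, against 293 to 295 in Th1 controls, and overlapped in Th17 cultures. Sums of 5 of 6 dendritic cell genes were 43.0 to 49.8 in Treg C2 arrays, against 27.4 to 34.1 in Treg controls, and overlapped in the other subsets. The 1 NK gene and the 1 dendritic cell gene tested were not called with C2. The latter, Itgax, went against its sum in Treg cultures, at means of 13.1 in C2 and 20.0 in control arrays. The other dendritic cell genes, all below the filter, were higher there, most of all Flt3 (15.8 and 3.52). Most of the NK sum was Klrd1, at 784 in Treg C2 and 1425 in Treg control arrays. Below the filter, Ncr1 was higher (8.01 and 3.89) and Klra8 lower there (1.44 and 4.14). Sums of 5 of 8 T cell identity genes were 5536 to 7425 in Th17 C2 arrays, against 7125 to 8369 in Th17 controls. They were 7141 to 8186 in Treg C2 arrays, against 10343 to 11429 in Treg controls, and 5733 to 7250 in Th1 C2 arrays, against 9596 to 9769 in Th1 controls. Cd3d fell in Th17 (-0.52), Cd3e in Treg (-0.89) and Cd3g in Th1 cultures (-0.97), and Cd28 rose in Th17 cultures (0.87). In the mean of the 3 subsets Cd3e, Cd3g, Cd3d and Cd4 all fell, by 0.55, 0.68, 0.57 and 0.72, and Cd28 rose by 0.45. None of the 5 stromal or 2 erythroid genes on the array passed the filter. The part of these markers in the results for the enzyme genes was not tested.

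Patterns most like those of the enzyme genes were sought among all genes tested, by Pearson's r of normalized log2 values over the 14 arrays. These r describe arrays that share groups and processing. For the ligase genes Ubtf was near the top in both, at 0.939 for Gclc and 0.951 for Gclm. Ahead of it stood Zfp764 (0.943) and Lat (0.941) for Gclc, and Casd1 (0.966) for Gclm, for which Clcn4 also had 0.951. Txnrd1 was most like Eif2s3x (0.946), Dhps (0.923) and Hmgn1 (0.918), and Hmox1 like Eif1ax (0.916), Eif4e (0.912) and Spats2 (0.904). Gsr was most like Mrpl19 (0.934), Hbegf (0.910) and Utp11 (0.897). Cbr3 was most like Ttyh2 (0.944), Cbs (0.934) and Tubg2 (0.932), and Gpx8 like Dcbld2 (0.875), Anapc15 (0.865) and Coprs (0.861).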

How the data were processed

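The deposited table holds 1 signal intensity for each of 45101 probe sets on each of 14 arrays, on a linear scale. Per the submitters' processing notes, MAS5 made these intensities (version and target not given in the sources used here). Gene symbols came from the platform annotation, and only probe sets of a single symbol entered, without the 64 array controls. Each gene was its probe set with the highest mean of log2(signal + 3), and the low-signal filter dropped genes below the 40th percentile of that mean (a signal of 9.10).

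Log2 values were quantile-normalized and fitted together with 6 group means in limma 3.58.1 (R 4.3.3), with eBayes and a trend, leaving 8 residual degrees of freedom. Adjusted p-values are Benjamini-Hochberg over 10916 genes. The number of arrays limits the precision. A log2 difference understates the change of low signals. The fit was tested on simulated data. Where leaving out an array left 1 in a group, it was assumed to vary like the others. Array labelling protocols differ between Th17 and the other subsets and cannot be told apart from subset. Labels give no batch.

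The members and lists were chosen with earlier results of these data known. Quantile normalization was chosen because an earlier account gave unequal array means. All members are named. From the pathway lists, up to 3 called genes per direction, list and subset are named, plus Nfe2l2, Keap1 and Bach1. Bach2 and the glutathione genes called in the mean of the 3 subsets are also named. For likeness, the 3 highest r are given. Alternatives covered scaling, the pseudocount, the filter, the probe set rule, eBayes without a trend, replicate number as a block and each array left out. Whether the numbers pair arrays within a subset could not be settled. Deviations of same-numbered arrays correlated at 0.15, 0.16 and -0.06 for Th17, where unlike numbers ran from -0.19 to 0.05. They correlated at 0.06 for Treg and -0.16 for Th1. With 2 arrays per group, unlike numbers there must give the same value with the opposite sign.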

Additional observations from a re-analysis of the deposited data

Results flagged for a closer look

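The C2 difference of Gsr pointed one way in Th17 cultures and the other way in Treg and Th1 cultures. Every Th17 C2 array lay below the Th17 controls, and every Treg and Th1 C2 array above its own controls. The Th17 difference minus the Treg difference was -1.211 on the log2 scale (SE 0.268, limma adjusted p = 0.076). The Th17 difference minus the Th1 difference was -1.014 (SE 0.268, limma adjusted p = 0.153). Over all 3 subsets the limma F test gave an adjusted p of 0.0761, which misses the threshold. Th17 samples also differ from the others in the compound their protocols name and in array labelling. Neither can be told apart from subset in these contrasts. No group has enough arrays for a check of single outlying arrays.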

How the results depend on the processing

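On the signals as deposited the members called numbered 2 in Treg cultures (4 as reported), 5 for untreated Th17 minus Th1 (0) and 0 for untreated Treg minus Th1 (1). All genes called there were 550, 3025 and 266, against 1363, 720 and 545 as reported. With the mean of a gene's probe sets the members called were 2 in Th17 and 1 in Th1 cultures, and without a trend 1 in Th1 cultures. With each array left out in turn they ranged from 1 to 5 for Th17, 0 to 5 for Treg and 0 to 3 for Th1 and were 7 for the mean. For untreated Th17 minus Th1 they were 0, for Treg minus Th1 0 to 1, for Th17 minus Treg 1 to 2 and for the F test 0 to 1. All genes called ranged over 1367 to 2522, 359 to 1639, 74 to 955, 2738 to 3671, 219 to 1013, 133 to 727, 479 to 1501 and 1 to 522 in the same order.

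The replicate block gave 3 members called for Th17, 4 for Treg and 1 for Th1, 7 for the mean of them, 0, 1 and 2 for the untreated comparisons and 0 for the F test. It ended the calls of Gclc in Th17 (limma adjusted p = 0.0506) and Txnrd1 in Th1 cultures (0.0524) and took all genes called in Th1 cultures to 225, against 439. A block with the Th1 numbers crossed, added after seeing the data, gave 4 members and 750 genes in Th1 cultures.

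Signs turned for values that were not called: Hmox1 in Th17 cultures as deposited (-0.1769), Srxn1 in Th17 cultures on the mean of its probe sets (0.09057) or on other probe sets alone (0.7668 and 0.4007), Srxn1 in Treg cultures without Treg C2 replicate 1 (-0.05391), without Treg control replicate 2 (-0.1758; up to 0.7808 without other arrays) or on another probe set (-0.2366), and Gclc in Th1 cultures without Th1 C2 replicate 1 (0.06517; down to -0.8534 without other arrays). The mean difference of Btrc, called as reported, was -0.006518 on the mean of its probe sets. The cause was not tested. Probe sets taken alone were added after seeing the data. Signal over background was not measured, and values below about 9.10 carry the least weight.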
